A study of Mus musculus with 8 samples.

Results

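The genes described here are 10 genes of mitochondrial fission and fusion, Fis1, Dnm1l, Mff, Mief1, Mief2, Mfn1, Mfn2, Opa1, Oma1 and Yme1l1. They were chosen by symbol, and all 10 were found among the 24639 gene entries of the count lists. Counts came from cultured primary glomerular mesangial cells (MMC), the contractile support cells of the kidney filter, taken from wild-type C57BL/6J mice (WT MMC) or from homozygous mice with a CRISPR-Cas9 nickase deletion at miR-379 (miR-379KO MMC). Neither genotype received a treatment, and both were grown in RPMI medium with fetal bovine serum. Each genotype was profiled as total RNA and as RNA recovered with anti-AGO2 beads from UV cross-linked, sonicated cells (AGO2-IP), with 2 replicates, A and B, in each of the 4 groups. The study calls A and B of the AGO2-IP independent, but the sources used here do not say whether that means separate mice, cultures or precipitations, so p-values measure the spread between these samples only.

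Mitochondria form a network that is cut by fission and joined by fusion. Fission is carried out by DRP1, the dynamin-related GTPase encoded by Dnm1l, which docks on outer membrane proteins encoded by Fis1, Mff, Mief1 and Mief2. Fusion of outer membranes needs the mitofusins Mfn1 and Mfn2, and fusion of inner membranes needs Opa1, whose protein is cleaved by the proteases encoded by Oma1 and Yme1l1. AGO2 is the Argonaute protein that holds a microRNA and the RNA it pairs with, so a target is sought as an RNA with fewer AGO2-IP reads, and possibly more total RNA, once the microRNA is lost. The study names Fis1 a target of miR-379. Its evidence was sequenced hybrids of miR-379 with Fis1, AGO2-IP reads at the target site, a reporter assay with a mutated site, and qPCR of total and AGO2-IP RNA. Gene-level counts as used here are a different measure and do not repeat those experiments. The question here was whether Fis1 behaved differently in these counts from the other genes of the same machinery.

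The microRNA and the stretches of 3′-UTR that hold its seed match are shown because the full match is held by Fis1 and Mfn2 and by none of the other 8 genes. Sequences are from RefSeq in GRCm38.p6, written 5′ to 3′ on the RNA strand. Capitals mark bases 2 to 8 of the microRNA (the seed) and, in the genes, the letters that pair with all 7 seed bases or with bases 2 to 7.
miR-379-5p, chr12:109709065-109709085: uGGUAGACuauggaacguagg
Fis1, chr5:136966115-136966142: cacccctgtaGTCTACCtctacagtctc
Mfn2, chr4:147874044-147874071: tcgcccctcaGTCTACCctttttgctgg
Mief1, chr15:80252864-80252890: ttcagagcctTCTACCaaggtacattt
Opa1, chr16:29651827-29651853: ttcctcccgtTCTACCcttttccgtgc

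The 7-base match GTCTACC occurred in the longest 3′-UTR of Fis1 and in that of Mfn2. In Fis1 it began at base 111 of a 3′-UTR of 220 bases, and in Mfn2 at base 1328 of one of 1803 bases. All 3 coding transcripts of Fis1 and all 7 of Mfn2 in the annotation held the site. Mief1 and Opa1 held only TCTACC, the 6-base part, which in Mief1 was followed by an A. Of the 19140 gene entries with a 3′-UTR in the reference, 777 (4.06%) held the 7-base match. Dnm1l, Mff, Mief2, Mfn1, Oma1 and Yme1l1 held neither match in the 3′-UTR used. A match of letters is a description and not a measured site, and the counts are sums over all exons of a gene, so reads at the site were not separated from the rest.

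Total RNA libraries held 17168230 to 22660743 gene counts and AGO2-IP libraries 5587611 to 17095021, of which the ribosomal RNA precursor Rn45s took 72.2 to 80.5% in AGO2-IP. The 10 genes together had 11833 to 15864 counts in a total RNA library and 633 to 897 in an AGO2-IP library. Of reads placed once, 46.6 to 49.7% fell outside genes in WT AGO2-IP and 73.4 to 76.4% in miR-379KO AGO2-IP. Each of the 8 markers of mesangial cells and pericytes was detected in each group, and in total RNA these summed to 17249 to 22469 CPM (counts per 1000000 counts of the scaled library). Podocyte markers summed to 240 to 628 CPM in total RNA, kidney tubule markers to 2.09 to 26.9, and endothelial and leukocyte markers to at most 2.09 and 1.48. In AGO2-IP the mesangial markers summed to 3020 to 3105 CPM in WT, compared to 1272 to 1923 in miR-379KO. The podocyte markers summed to 24.3 to 70.3 CPM, compared to 29.6 to 56.8. Most of the mesangial sum came from Col4a1, Acta2 and Tagln, and single markers differed. By edgeR's test between genotypes (adjusted p under 0.05), 4 of the 8 mesangial markers fell and Itga8 rose. Itga8 had 16 and 16 counts in WT against 32 and 36 in miR-379KO. Of 4 podocyte markers tested, only Nphs1 passed, with 3 and 2 counts in WT against 21 and 11. Tubule markers summed to 5.78 to 7.28 CPM in WT AGO2-IP, compared to 17.4 to 21.6 in miR-379KO, endothelial markers to 2.31 to 4.12, compared to 6.69 to 8.18, and leukocyte markers to 3.70 to 5.29, compared to 10.1 to 14.4. Their part in the results was not tested. Mature miR-379 was not analysed here. The Mir379 gene entry had 4 counts in WT AGO2-IP B, 1 in miR-379KO AGO2-IP A and 0 in the other 6 libraries, which does not check the deletion.

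Levels of the 10 genes are given as CPM scaled with TMM, edgeR's correction for library composition, separately in each assay. Per kilobase of exon, Fis1 had the highest level of the 10 in total RNA, with 50.8 ± 13.5 CPM per kb (SD, n = 2) in WT MMC and 60.3 ± 6.03 in miR-379KO MMC. Mff, which encodes a DRP1 receptor, followed with 39.7 ± 1.10 and 41.4 ± 0.335 CPM per kb. Fis1 and Mff did not overlap between replicates in either genotype.

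Yme1l1, Mfn2 and Dnm1l lay next in WT total RNA, at 27.3 ± 5.72, 24.8 ± 2.64 and 24.2 ± 9.11 CPM per kb (SD, n = 2), and each overlapped with its neighbour. Mfn1 and Mief1 overlapped as well, at 9.80 ± 0.685 and 9.67 ± 0.0897 CPM per kb. Mief2 was the lowest, with 5.13 ± 0.0565 CPM per kb, and overlapped with Oma1. Taken per kilobase, the 5 fission genes made up 60.3 to 63.8% of the summed level of the 10 genes across the 4 total RNA libraries, and the 3 fusion genes 20.7 to 23.7%. These shares overlapped between genotypes.

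The order was different in AGO2-IP, where Yme1l1 was the highest per kilobase in both genotypes (4.43 ± 0.746 CPM per kb in WT MMC, 4.06 ± 0.134 in miR-379KO MMC, SD, n = 2). Fis1 was at 3.58 ± 0.280 CPM per kb in WT and 3.35 ± 1.13 in miR-379KO. The fusion genes took 27.4 and 28.5% of the summed level of the 10 genes in the WT libraries, compared to 21.9 and 23.1% in the miR-379KO libraries. The fission genes took 50.3 and 48.4% in WT, compared to 55.7 and 52.5% in miR-379KO. Neither share overlapped between genotypes, and with 2 libraries against 2 the smallest exact permutation p is 0.33.

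**Figure D1:**
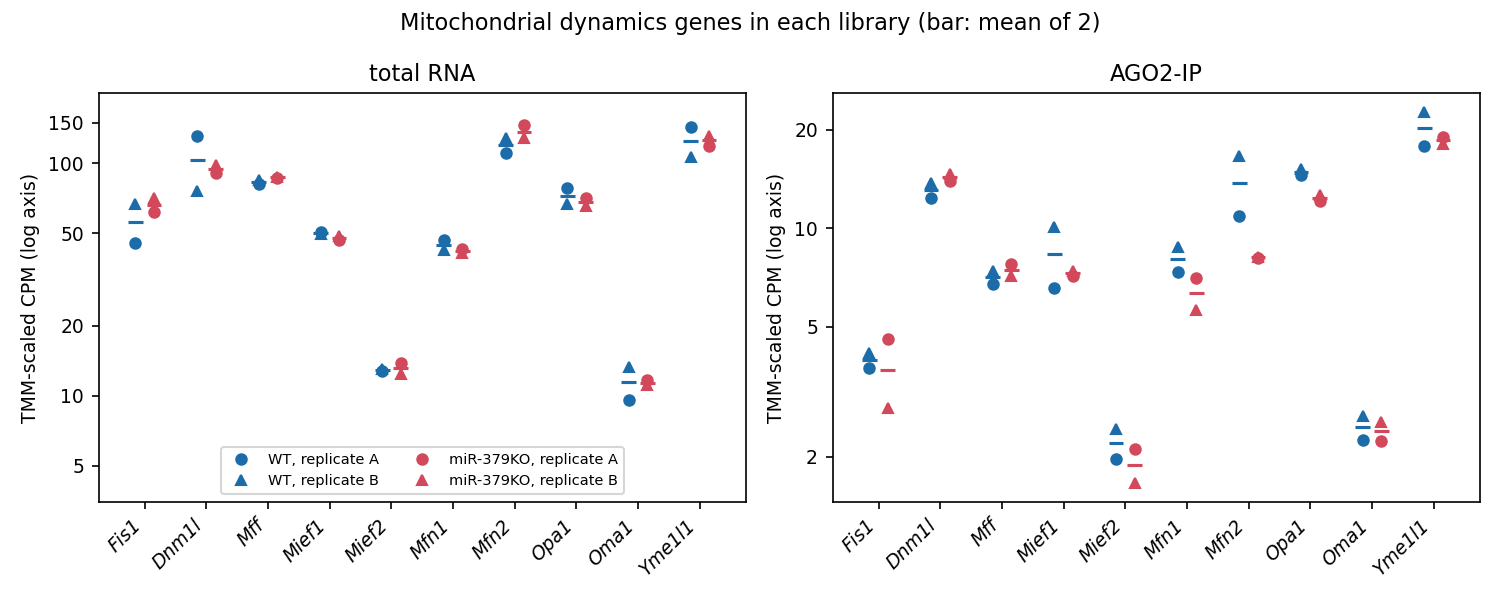
TMM-scaled CPM (log axes) of the 10 genes in each of the 4 total RNA libraries (left) and 4 AGO2-IP libraries (right), with WT in blue and miR-379KO in red, circles for replicate A, triangles for replicate B and bars for the mean of 2. In AGO2-IP both miR-379KO points of Mfn2 (8.10 and 8.18) lie below both WT points (10.9 and 16.7), whereas those of Fis1 lie on both sides of the WT points.

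None of the 10 genes passed the test between miR-379KO and WT total RNA. By edgeR's quasi-likelihood test with Benjamini-Hochberg adjustment 0 of 12321 genes passed an adjusted p under 0.05, so percent called was 0, and 91 genes (0.739%) had an unadjusted p under 0.05, none of them among the 10. DESeq2 also called 0 genes. By the study's own cutoffs, a fold over 1.5 with an unadjusted p under 0.05, 0 of the 10 and 0.682% of all genes passed in total RNA (0.349% as lower). In bulk RNA, fewer cells of a type and less RNA per cell cannot be told apart. The log2 fold changes of the 10 genes ran from −0.13 to 0.25 with a median of −0.00, compared to a median of −0.01 over all genes tested.

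Fis1 counts in total RNA were 763 and 1216 in WT against 1420 and 1211 in miR-379KO, which gave 45.5, 66.6, 61.7 and 71.1 CPM. WT A was the low library, and the genotypes overlapped because WT B lay between both miR-379KO values. The log2 fold change was 0.25 ± 0.26 (SE), with a 95% interval of −0.38 to 0.87. This interval spans a fold of 0.768 to 1.83, so a modest rise or fall was not detectable at this spread. Without WT total RNA A the change was 0.00, and its range over the 15 alternatives was 0.00 to 0.55.

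Mfn2 counts in total RNA were 1859 and 2355 in WT against 3350 and 2191 in miR-379KO, or 111, 129, 146 and 129 CPM. The genotypes overlapped, with WT B a little above miR-379KO B, and the log2 fold change was 0.19 ± 0.21 (SE). Dnm1l had the widest spread among WT libraries, with 131 CPM in A and 75.7 in B, on either side of 90.9 and 98.1 CPM in miR-379KO. Its log2 fold change of −0.13 ± 0.30 (SE) became 0.32 without WT total RNA A.

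Replicates of the 2 genotypes did not overlap for 2 of the 10 genes in total RNA, compared to 19% of all genes tested (9.89% higher and 9.07% lower in miR-379KO). These were Mff, with 81.8 and 85.1 CPM in WT against 86.5 and 87.5 in miR-379KO, and Mief1, which encodes an outer membrane adaptor of DRP1, with 50.5 and 49.8 CPM in WT against 46.7 and 48.6 in miR-379KO. The log2 fold changes were 0.06 ± 0.20 and −0.07 ± 0.20 (SE). The remaining genes, Mief2, Mfn1, Opa1, Oma1 and Yme1l1, had log2 fold changes of −0.09 to 0.02, and their genotypes overlapped.

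In AGO2-IP, Mfn2 was the only one of the 10 genes that passed the test between genotypes, and it was lower in miR-379KO MMC. Its counts were 111 and 144 in WT against 69 and 64 in miR-379KO, or 10.9, 16.7, 8.10 and 8.18 CPM. Both miR-379KO libraries were below both WT libraries. The log2 fold change was −0.75 ± 0.25 (SE), a fold of 0.594 with an interval of 0.417 to 0.846 (edgeR quasi-likelihood, Benjamini-Hochberg adjusted p = 0.0239). The count of 1 in 10 genes compares with 30.9% of all 13505 genes tested that were called in AGO2-IP, and with 9.52% that were called lower, and none of the 10 was called higher, compared to 21.4% of all genes. By the study's cutoffs Mfn2 was again the one gene of the 10, compared to 39.4% of all genes (13.3% as lower) that passed. At 1 of 10 the count was near the share of lower calls over all genes. The shares of 21.4% and 30.9% are not a like background, because 2603 of the 2887 higher calls were genes averaging up to 100 total RNA counts. None of the 10 lies in that class. In the classes by total RNA count that hold the 10, higher calls were 7 of 3651 and 277 of 5951 genes. Lower calls in these classes were 963 and 306.

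The call of Mfn2 was lost with DESeq2 (adjusted p = 0.163), with offsets for exon GC content and length (0.107, or 0.131 with a replicate block), with TMM taken from genes with total RNA counts (0.0789), with all 8 libraries in 1 fit (0.0622), without WT B (0.268), without miR-379KO A (0.0593) and without miR-379KO B (0.121), and the adjusted p ran from 0.00255 to 0.930 over the 14 alternatives. Its log2 fold change was −0.79 with DESeq2, −0.90 with all 8 libraries, −0.82 without miR-379KO A and −0.78 without miR-379KO B, which is no smaller than −0.75, and −0.58 to −0.46 in the other 4. When the AGO2-IP libraries were scaled by their total gene counts alone, Mfn2 had 6.49 and 15.02 CPM in WT against 10.5 and 11.5 in miR-379KO, a log2 fold change of 0.055. That scaling moved the median of all genes to 0.87. Minus the median of all genes, the log2 value of Mfn2 was −1.33 to −0.40 under the 15 settings, the main one included. The −1.33 came with no filter on low counts, where that median was 0.36. Genes averaging over 1000 total RNA counts, as Mfn2 did, had a lower median of −0.45 in the main fit.

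Genes with more total RNA counts had lower AGO2-IP values in miR-379KO MMC as a class. Among 3651 tested genes averaging more than 1000 counts per total RNA library, the median log2 fold change was −0.45, and 26.4% were called lower. Mfn2, with a mean of 2439 total RNA counts, belongs to this class, as do Yme1l1, Dnm1l, Mff, Opa1 and Fis1. Among 5951 genes averaging more than 100 and up to 1000, the median was −0.08, and 5.14% were called lower. The part of abundance in the value of Mfn2 was not tested.

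**Figure D2:**
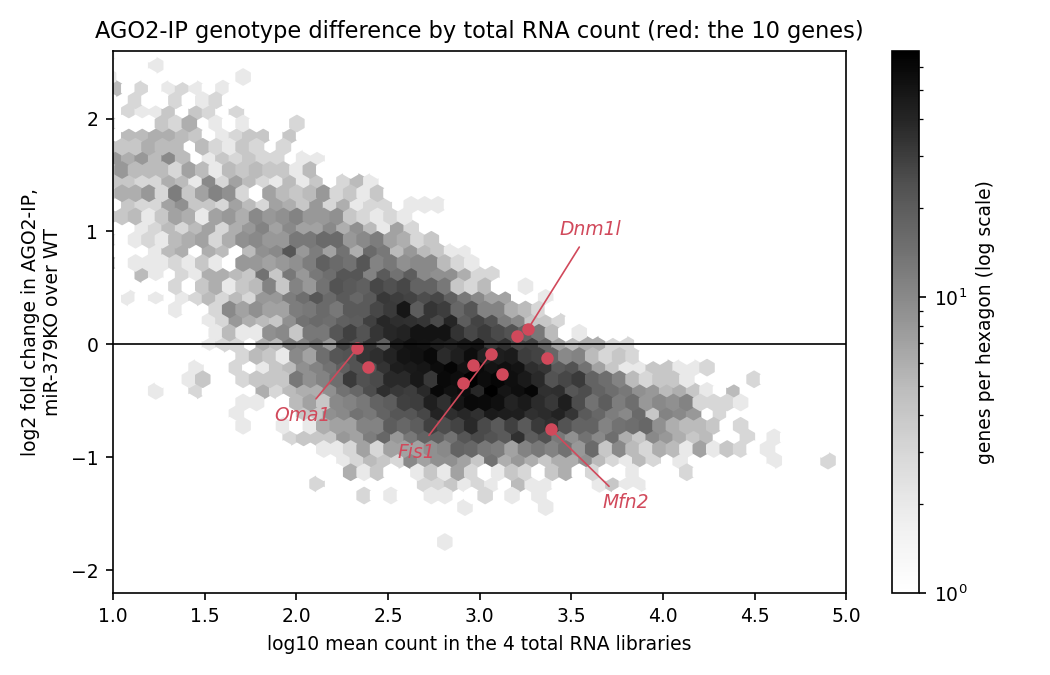
Log2 fold change in AGO2-IP of miR-379KO over WT (y axis) against the log10 mean count in the 4 total RNA libraries (x axis), with grey hexagons for the number of tested genes (log scale, axes limited to genes with log10 means of 1 to 5) and red points for the 10 genes. Mfn2 (−0.75) lies at the lower side of genes of similar count, and Dnm1l (0.14) and Mff (0.08) at the upper side, although both turned below 0 with the GC and length offset (−0.49 and −0.20).

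Fis1 had few AGO2-IP counts and did not differ between genotypes beyond its spread. It had 38 and 36 counts in WT against 39 and 22 in miR-379KO, or 3.73, 4.16, 4.58 and 2.81 CPM. The highest and the lowest values were both from miR-379KO libraries. The log2 fold change was −0.08 ± 0.32 (SE), with a 95% interval of −0.74 to 0.58 and an adjusted p of 0.867 (edgeR quasi-likelihood, Benjamini-Hochberg). A fall to a fold of 0.598 and a rise to a fold of 1.49 both lie within that interval. Counting error alone gave the 22 counts of miR-379KO B an exact Poisson interval of 13.8 to 33.3 at 95%. The direction turned with the GC and length offset (0.31, or 0.30 with a replicate block) and with TMM taken from genes with total RNA counts (0.086). It also turned with total gene counts alone (0.77) and without miR-379KO B (0.20). In the alternatives that kept every library the adjusted p was 0.185 or more (edgeR quasi-likelihood or DESeq2, Benjamini-Hochberg).

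The other mitofusin, Mfn1, had 75 and 76 counts in WT AGO2-IP compared to 60 and 44 in miR-379KO, or 7.35, 8.79, 7.04 and 5.62 CPM. Opa1 had 14.5 and 15.1 CPM in WT against 12.1 and 12.6 in miR-379KO. In both genes the miR-379KO libraries lay below the WT libraries, but neither passed, with log2 fold changes of −0.34 ± 0.26 and −0.26 ± 0.22 (SE). Dnm1l was a little above WT in both miR-379KO libraries, with 12.4 and 13.8 CPM in WT against 13.96 and 14.7 in miR-379KO, and a log2 fold change of 0.14 ± 0.22. With the GC and length offset it was −0.49 (edgeR quasi-likelihood, Benjamini-Hochberg adjusted p = 0.0905), below 0 like Mfn1 and Opa1. Replicates did not overlap for 4 of the 10 genes in AGO2-IP, compared to 68.4% of all genes tested. Mfn1, Mfn2 and Opa1 were lower without overlap, compared to 32.2% of all genes, and Dnm1l was higher, compared to 36.1%.

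Of the DRP1 receptors and adaptors, Mff had 6.76 and 7.40 CPM in WT AGO2-IP compared to 7.74 and 7.15 in miR-379KO. Mief1, which holds a 6-base match followed by an A, had 6.57 and 10.1 CPM in WT against 7.16 and 7.41 in miR-379KO. Mief2 rested on 20, 21, 18 and 13 counts. The log2 fold changes were 0.08 ± 0.25, −0.18 ± 0.26 and −0.20 ± 0.39 (SE), and the genotypes overlapped in each.

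The inner membrane proteases were within their spread in AGO2-IP as well. Oma1 had 23 and 23 counts in WT against 19 and 20 in miR-379KO, a log2 fold change of −0.03 ± 0.36 (SE). Yme1l1 had 17.8 and 22.7 CPM in WT against 19.0 and 18.1 in miR-379KO, a log2 fold change of −0.12 ± 0.22. With the GC and length offset Yme1l1 fell by 1.22 on the log2 scale, Opa1 by 0.70 and Mfn1 by 0.68, and all 3 passed (edgeR quasi-likelihood, Benjamini-Hochberg adjusted p of 0.000879, 0.0203 and 0.0440), whereas Mfn2 did not. Over all genes 1611 of 13473 were called lower with that offset. The exons of Yme1l1 had 37.4% GC, the lowest of the 10 genes, compared to 55.5% in Fis1 and 54.7% in Mfn2.

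**Figure D3:**
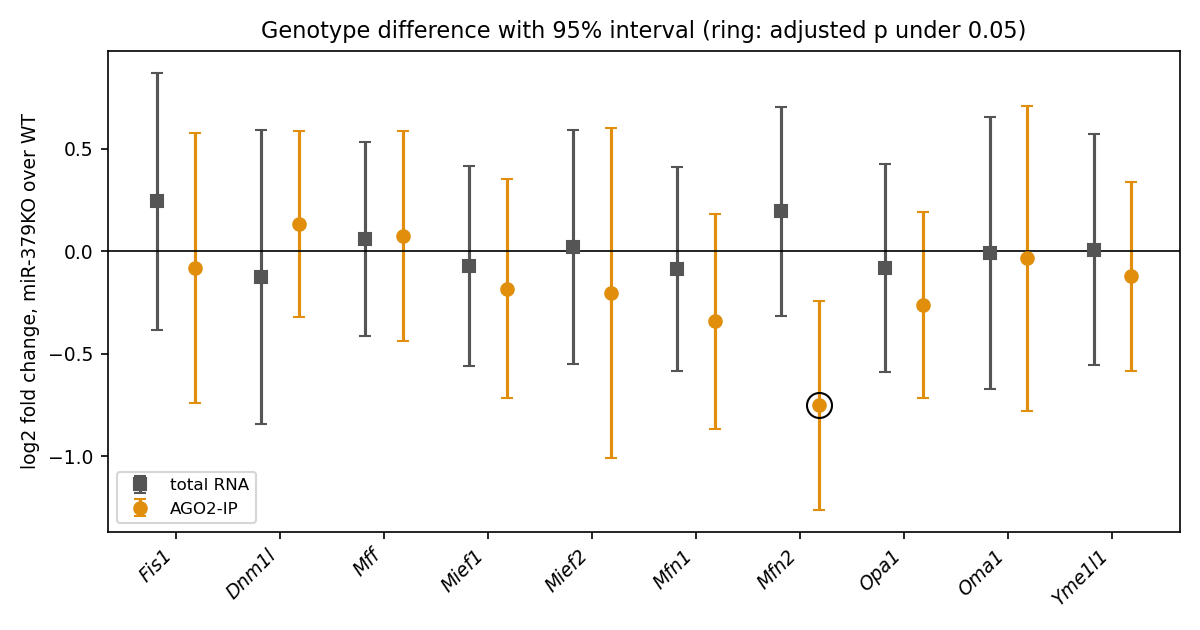
Log2 fold change of miR-379KO over WT for the 10 genes in total RNA (grey squares) and AGO2-IP (orange circles), with 95% intervals from the edgeR fits and a ring where the adjusted p was under 0.05. Mfn2 in AGO2-IP (−0.75) carries the one ring, and the interval of Fis1 crosses 0 in both assays.

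Whether AGO2-IP changed more than total RNA was tested as the interaction of genotype and assay over all 8 libraries. None of the 10 genes passed (edgeR quasi-likelihood, Benjamini-Hochberg), as did none of 17429 genes tested (percent called 0), while 2733 genes (15.7%) had an unadjusted p under 0.05 and DESeq2 called 120. Mfn2 was the one member with an unadjusted p under 0.05. Its value was −1.16 ± 0.38 (SE, adjusted p = 0.240), with a 95% interval of −1.96 to −0.35, and without WT total RNA B it was −1.41 (adjusted p = 0.0236). Fis1 was at −0.52 ± 0.44 (SE), with an interval of −1.45 to 0.42 and an adjusted p of 0.601, and was −0.97 without WT total RNA B and 0.020 without miR-379KO AGO2-IP B. The median over the 10 genes was −0.38, compared to 0.01 over all genes tested, and 9 of the 10 values were below 0, with Dnm1l at 0.02 the exception. All genes are not a like background for this median. Genes averaging over 1000 total RNA counts had median log2 values of AGO2-IP over total RNA of −0.45 in WT and −1.09 in miR-379KO. Of the 10 genes, 6 are in that class, and the part of abundance was not tested. With total gene counts alone 1 of the 10 was below 0, Fis1 was at 0.58 and Mfn2 at −0.10, and the median of all genes was at 1.12.

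Ratios within a library need no scaling, but they keep any difference between libraries that depends on a gene's GC content or length. The log2 ratio of Fis1 counts to the geometric mean of the counts of the other 9 genes was −0.24 and 0.40 in WT total RNA against 0.23 and 0.46 in miR-379KO. In AGO2-IP it was −0.95 and −1.09 in WT against −0.64 and −1.29 in miR-379KO. The genotypes overlapped in both assays. The miR-379KO minus WT difference was 0.27 in total RNA, where leaving out WT A turned it to −0.05, and 0.05 in AGO2-IP, where leaving out miR-379KO A turned it to −0.28 and leaving out WT B to −0.02. Set against Dnm1l, Mff, Mief1 and Mief2 alone the AGO2-IP difference was −0.09, and against Mfn1, Mfn2 and Opa1 it was 0.31.

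The same ratio for Mfn2 was 0.77 and 1.13 in WT AGO2-IP compared to 0.27 and 0.42 in miR-379KO, which did not overlap, a difference of −0.61. In total RNA it was 1.18 and 1.46 in WT against 1.61 and 1.41 in miR-379KO, a difference of 0.19 with overlap. Mfn2 and Fis1, which share the 7-base match, were compared directly as the ratio of their counts. In AGO2-IP there were 2.92 and 4 Mfn2 counts per Fis1 count in WT against 1.77 and 2.91 in miR-379KO, and in total RNA 2.44 and 1.94 in WT against 2.36 and 1.81 in miR-379KO. The AGO2-IP ratio did not overlap by a narrow margin, and its exact two-sided permutation p of 0.33 is the smallest that 2 against 2 libraries allow. This test could therefore not decide whether Mfn2 and Fis1 differed. The same holds for Mfn2 and Mfn1. There were 1.48 and 1.89 Mfn2 counts per Mfn1 count in WT AGO2-IP compared to 1.15 and 1.45 in miR-379KO. That ratio also did not overlap by a narrow margin (exact permutation p = 0.33).

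**Figure D4:**
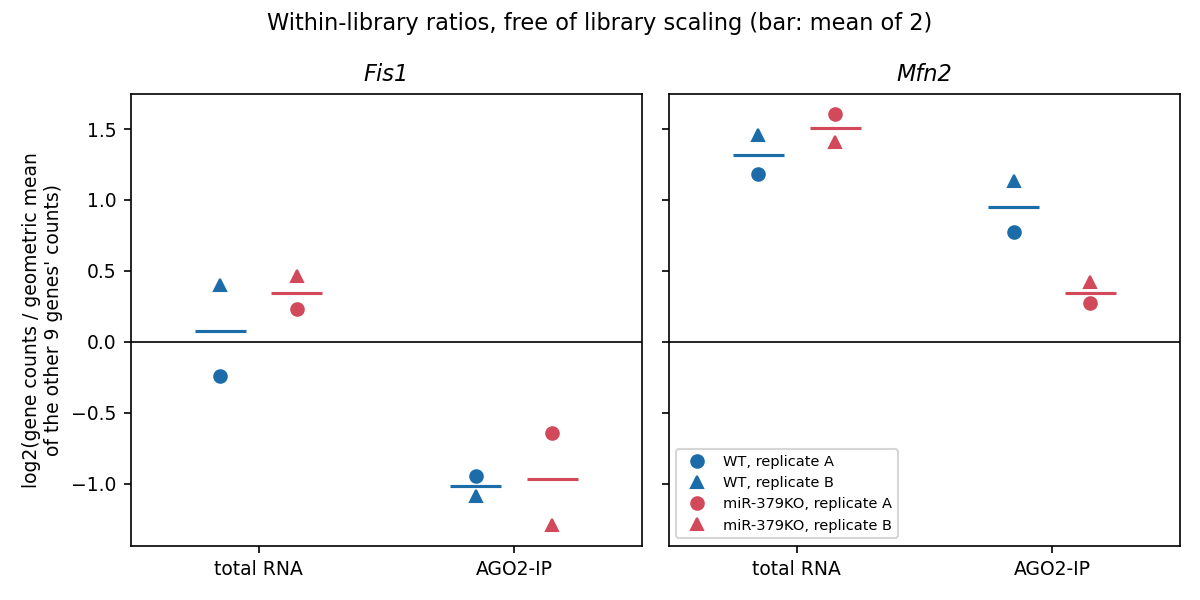
Log2 ratio of the counts of Fis1 (left) and Mfn2 (right) to the geometric mean of the counts of the other 9 genes in the same library (y axis), by assay, with WT in blue, miR-379KO in red, circles for replicate A, triangles for replicate B and bars for the mean of 2. Fis1 overlaps between genotypes in both assays, and Mfn2 in AGO2-IP is at 0.77 and 1.13 in WT against 0.27 and 0.42 in miR-379KO.

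Fis1 and Mfn2 were set beside all genes that hold the 7-base match. Of 615 tested genes with the match, 7.48% were called lower, compared to 10.0% of 12162 without it, and the median log2 fold changes were 0.02 and −0.06. No test was made of these shares. Fis1, at −0.08, lay near both medians, and Mfn2 was among the 46 genes with the match that were called lower.

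Fis1 and Mff were recovered less in AGO2-IP than in total RNA in both genotypes, and Mfn2 in miR-379KO MMC. A call here needed an adjusted p under 0.05 and a 2-fold difference. In WT, Fis1 was 2.57-fold lower in AGO2-IP (log2 −1.36 ± 0.31 SE, edgeR quasi-likelihood, Benjamini-Hochberg adjusted p = 0.00161) and Mff 2.10-fold lower (−1.07 ± 0.24, adjusted p = 0.00144). These were 2 of the 10 genes, compared to 43.1% of 17429 genes called in either direction and 7.33% called lower. In miR-379KO, Fis1 was 3.68-fold lower, Mfn2 3.48-fold lower and Mff 2.41-fold lower, with log2 values of −1.88 ± 0.32, −1.80 ± 0.28 and −1.27 ± 0.24. These were 3 of the 10 genes, compared to 61% called in either direction and 19.3% called lower.

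In WT, Mfn2 was at −0.64 ± 0.26 (SE, adjusted p = 0.0509) and was not called, and −1.29 (adjusted p = 0.00519) without WT AGO2-IP B. Whether the recovery of Mfn2 differed between genotypes is the interaction given above, which did not pass. The other 7 genes lay between −0.47 and 0.25 in WT and between −0.52 and 0.02 in miR-379KO, and none of them was called. Medians over the 10 genes were −0.11 in WT and −0.46 in miR-379KO, compared to 0.49 and 0.47 over all genes tested and to −0.45 and −1.09 over 3653 genes averaging more than 1000 total RNA counts. Without WT total RNA B the WT values of Fis1 and Mff were both −0.96, short of 2-fold, so that 0 of the 10 were called, although both kept an adjusted p under 0.05. With the GC and length offset 5 of the 10 genes were called lower in WT and 9 in miR-379KO. Over all genes that offset gave 4636 of 17375 called lower in WT and 7269 in miR-379KO, with medians of −0.29 and −0.60. Without the offset, 35.7% and 41.6% of all genes were called higher in AGO2-IP, and none of the 10 was. No share was taken among genes of similar total RNA count. The lack of higher calls was therefore not read as a trait of the 10. Fis1 has 1102 bases of exon, the fewest of the 10 genes, and Oma1, Mff and Mief2 follow with 1866, 2102 and 2522. The library chemistry differed between the assays. Total RNA used a stranded mRNA kit, and AGO2-IP a small-RNA type of library made without the step that ligates microRNAs to their target RNAs. The effect of this chemistry cannot be told apart from recovery by AGO2.

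**Figure D5:**
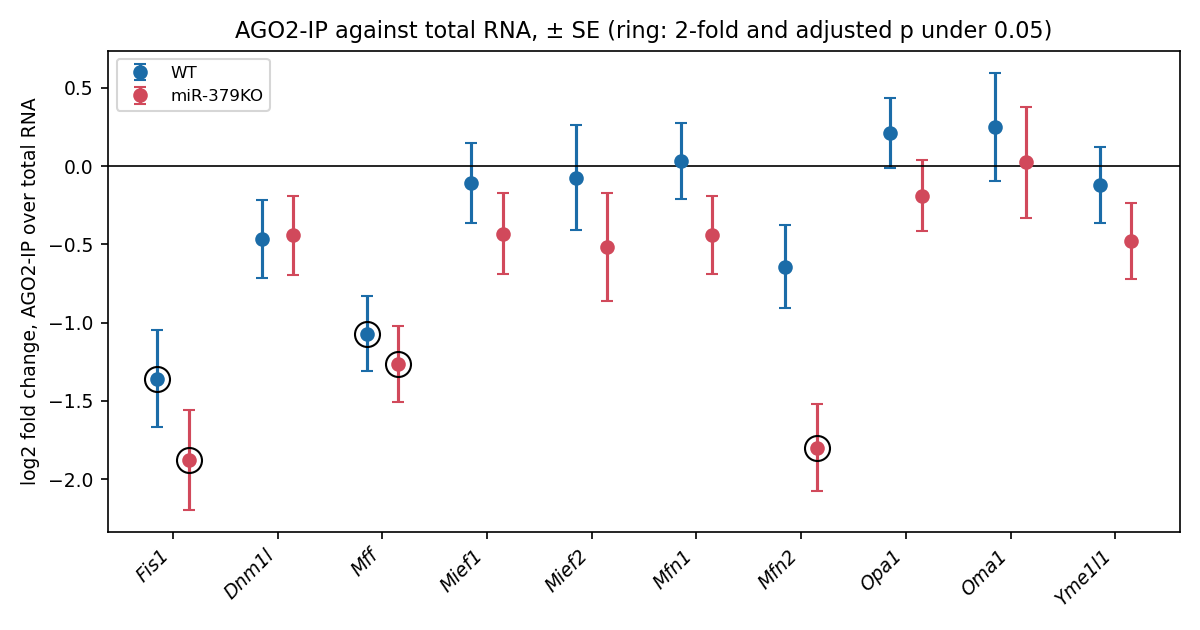
Log2 fold change of AGO2-IP over total RNA for the 10 genes in WT (blue) and miR-379KO (red), with bars for the SE and a ring where the difference was at least 2-fold with an adjusted p under 0.05. Fis1 and Mff carry rings in both genotypes and Mfn2 only in miR-379KO (−1.80, compared to −0.64 in WT).

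The genes whose pattern was most like that of Fis1 were Brk1, Cnpy2 and Ostf1, with Pearson's r of 0.98, 0.96 and 0.96 over the 8 libraries. Each library's log2 CPM was taken after subtraction of its assay's mean, among 8497 genes that averaged 20 counts or more in both assays. These r values are descriptions, since the genes share libraries and depth, and the 5th and 95th percentiles of the 8497 values were −0.70 and 0.75. Among the dynamics genes, Mff had the highest r with Fis1 (0.65), followed by Mfn2 (0.37), Oma1 (0.31), Mfn1 (0.30), Mief1 (0.09) and Yme1l1 (−0.12). Opa1 (−0.35) and Dnm1l (−0.61) varied in the opposite direction, and Mief2 was below the count minimum in AGO2-IP.

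A further 42 genes around this machinery were counted in 5 lists: accessory fission factors, inner membrane and cristae proteins, ubiquitin regulators, mitophagy receptors and adaptors, and mitochondrial transport. In total RNA 40 of them were tested and none passed, with a median log2 fold change of 0.09. In AGO2-IP 39 were tested, of which 5 were called lower and 1 higher in miR-379KO (edgeR quasi-likelihood, Benjamini-Hochberg), with a median of −0.37 compared to −0.01 over all genes tested. Over all genes 9.52% were called lower and 21.4% higher. The share of lower calls depended on abundance, with 26.4% among genes averaging over 1000 total RNA counts and 5.14% from 100 to 1000. The share of higher calls did so too, with 2603 of the 2887 in genes averaging up to 100 total RNA counts. The counts of lower and higher calls were therefore not read against the shares over all genes. With DESeq2, and without miR-379KO AGO2-IP B, none of the 39 was called, and with total gene counts alone 6 were called higher and 0 lower.

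Of 8 accessory fission genes tested, Inf2, an actin-assembling formin that acts at the endoplasmic reticulum, was called lower, with 529 and 358 counts in WT AGO2-IP compared to 263 and 197 in miR-379KO (log2 −0.73 ± 0.24 SE). Gdap1, an outer membrane protein, was called higher on 4 and 3 counts in WT against 16 and 20 in miR-379KO, and with a minimum count of 10 it entered the test only through miR-379KO, where it was high. Of 10 inner membrane genes tested, 2 were called lower. These were Immt, the core cristae junction protein (log2 −0.86 ± 0.23), and Spg7, a subunit of an inner membrane protease (−0.86 ± 0.24).

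Of 12 mitophagy genes, the adaptor Sqstm1 (log2 −0.85 ± 0.29 SE) and the receptor Fkbp8 (−0.65 ± 0.23) were called lower. None of the 5 ubiquitin regulators or 4 transport genes was called. Inf2, Immt, Spg7, Sqstm1 and Fkbp8, like Mfn2, each averaged over 1000 counts in total RNA. With the GC and length offset the counts were again 5 lower and 1 higher (over all genes 1611 and 1953 of 13473). Immt and Gdap1 were then the only genes in common with the main test.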

How the data were processed

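The deposited files hold, per sample, whole-number counts of reads per gene, which the authors made by aligning reads to mm10 with TopHat (Bowtie2 2.1.0.1 per the submitters' processing notes) and counting on RefSeq genes with HTSeq 0.6.0 in reverse-stranded mode. Counts were not normalized by the authors. Counting used strand. Reads shared by near-identical gene copies may be missing.

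Counts were tested in edgeR 4.0.16 (R 4.3.3) with TMM factors, filterByExpr with a minimum count of 10, robust dispersions, the quasi-likelihood test and Benjamini-Hochberg adjustment over all genes tested. Total RNA and AGO2-IP were fitted separately, on 4 libraries each. The interaction, and AGO2-IP against total RNA, were fitted on all 8. The code was tested on simulated data. Alternatives were DESeq2 1.42.0, other scalings and filters, offsets for GC content and exon length (lowess span 0.3), replicate blocks and omission of each library. The scaling by total gene counts alone and the crossed block were added after the data were seen.

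Of 24639 entries, 24323 matched the GRCm38.p6 RefSeq annotation, by symbol or synonym. All 10 members were named. Genes of other lists were named where they passed, up to 4 per list, and the 3 genes most like Fis1 by correlation. The members and lists were chosen with earlier results of these data known. Replicates differed by more than sampling noise (chi-square per degree of freedom of 3.51 to 119).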

Additional observations from a re-analysis of the deposited data

How the results depend on the processing

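Of the 10 genes, 1 was called between genotypes in AGO2-IP. That count was 0 with DESeq2, with TMM from genes with total RNA counts, with all 8 libraries in 1 fit and with total gene counts alone, 3 (Mfn1, Opa1 and Yme1l1) with the GC and length offset, with or without the replicate block, and 0 to 1 leaving out 1 library. For the interaction the count was 0, but 1 (Yme1l1) with the offset, 2 (Opa1 and Yme1l1) with the offset and the replicate block, and 0 to 1 leaving out 1 library. For AGO2-IP against total RNA it was 2 in WT and 3 in miR-379KO, but 5 and 9 with the offset, with or without the block, and 0 to 3 in WT leaving out 1 library. In total RNA it was 0 throughout. Over all genes the offset called lower 1611 of 13473 in AGO2-IP between genotypes and 930 of 17375 for the interaction. For AGO2-IP against total RNA it called lower 4636 of 17375 in WT and 7269 in miR-379KO. With the block added these were 1399, 1777, 4646 and 7296. The cause of the shifts in the counts was not tested.

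Signs turned in 30 of 140 alternative values of the 10 genes in AGO2-IP and in 20 of 150 in total RNA. Only some of these are given here. With the offset, without and with the block, Fis1 was at 0.31 and 0.30, Dnm1l at −0.49 and −0.49 and Mff at −0.20 and −0.20. With total gene counts alone (median of all genes 0.87) Fis1 was at 0.77, Mief1 at 0.63, Mief2 at 0.66, Mfn1 at 0.50, Mfn2 at 0.055, Opa1 at 0.60, Oma1 at 0.84 and Yme1l1 at 0.71, and the interaction of Fis1 was at 0.58. Leaving out 1 library turned, among others, Dnm1l in total RNA (−0.47 to 0.32, the latter without WT A) and Mief1 in AGO2-IP (−0.53 to 0.10, without WT B). It also turned the interaction of Fis1 (−0.97 to 0.020, without miR-379KO AGO2-IP B). Of the interactions of the 10 genes, 9 were below 0, compared to 10 with the offset and 1 with total gene counts alone. Of AGO2-IP against total RNA in WT, 7 of the 10 values were below 0, compared to 10 with the offset.

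Over all genes, AGO2-IP calls fell from 4173 to 838 with DESeq2 and 686 with all 8 libraries in 1 fit, and were 918 to 3337 leaving out 1 library. The share of calls that were higher in miR-379KO was 69.2%, but 54.1% with no filter, 54.8% with the offset and also with all 8 libraries in 1 fit, 85.4% with TMM from genes with total RNA counts and 99.9% with total gene counts alone. Interaction calls rose from 0 to 120 with DESeq2, 8 with the block, 954 with the offset, 1820 with the offset and the block, 2 with TMM from genes with total RNA counts, 2153 with total gene counts alone and up to 1547 leaving out 1 library. For AGO2-IP against total RNA, calls were 7507 in WT and 10627 in miR-379KO, and 16163 in miR-379KO with no filter. The share of these calls that were higher in AGO2-IP was 83.0% in WT and 68.3% in miR-379KO, but 51.7% and 44.9% with the offset.

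Same-letter deviations from group means correlated between genotypes at −0.21 over 12321 genes in total RNA and −0.03 over 13505 in AGO2-IP. Letters A and B were therefore not taken as pairs of the genotypes within an assay. Whether total RNA and AGO2-IP of the same letter belong together was not checked, and the main fits over both assays did not pair them. The replicate block alone changed no call among the 10 genes (Mfn2 in AGO2-IP −0.73, adjusted p = 0.0268, edgeR quasi-likelihood). The crossed block in total RNA called 1 gene of 12321 and 0 of the 10. Depth limits Mief2, Oma1 and Fis1 most, with 13 to 21, 19 to 23 and 22 to 39 counts in an AGO2-IP library.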
